A study of Rattus norvegicus with 44 samples.

Results

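The genes described are 6 members of neurotrophin signaling in the rat dentate gyrus (DG). They are the ligands Bdnf and Ntf3, the receptors Ntrk2 and Ntrk3, and the activity-regulated secreted proteins Vgf and Nptx2. They were taken by gene symbol from the table of normalized counts, and the rows of each gene identifier were summed. This gave 6 of 18347 gene identifiers and 21 of 24694 rows, and all 6 were among the 15598 genes with a mean of at least 5 that were tested.

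The study asked how 2 senolytic treatments act on the aging brain, and RNA of the DG from 1 hemisphere was sequenced with 1 poly(A) library per rat. All rats were males of the inbred F344 strain. YNG were 6 months old and received vehicle (n = 10). The 3 older groups were 12 months old when treatment began and about 18 months old at tissue collection. AV received vehicle (n = 12), AA received ABT-263 at 12 mg/kg (n = 11), and ADQ received dasatinib at 1.2 mg/kg with quercetin at 12 mg/kg (n = 11). ABT-263 is an inhibitor of BCL-2 family proteins, dasatinib is a kinase inhibitor, and quercetin is a plant flavonoid. Treatment was by oral gavage for 5 days per cycle over 8 cycles with breaks of 2 weeks, and after a final round the tissue was taken 2 weeks later. Since only age stands in the labels, each rat's treatment, vehicle for YNG included, was taken from the authors' attributes table by rat name.

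BDNF and NT-3, the products of Bdnf and Ntf3, are secreted growth factors that support neurons and strengthen synapses. BDNF binds the receptor tyrosine kinase TrkB (Ntrk2) and NT-3 binds mainly TrkC (Ntrk3). In the hippocampus, granule cells of the DG make both ligands, TrkB is found in neurons and, as a form without the kinase, in astrocytes, and VGF and the pentraxin NPTX2 are secreted products of genes that neuronal activity and BDNF can induce.

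The promoters are shown for the ligand whose level was lower in the older rats and for the 3 genes known to respond to activity. RefSeq promoter windows of the GRCr8 build, 250 bases before and 50 bases after a start site, were held for 4 of the 6 genes, with 6 starts for Bdnf, 3 for Ntf3 and 1 each for Vgf and Nptx2. No window is shown for Ntrk2 and Ntrk3. Capitals mark the cAMP response element TGACGTCA, its shorter core TGACG and the E-box CACGTG, searched on both strands, and the full element holds the core on both strands. The build differs from the one the reads were aligned to, so positions apply to the windows alone.
Ntf3 (first start, minus strand, chr4:160670574-160670873): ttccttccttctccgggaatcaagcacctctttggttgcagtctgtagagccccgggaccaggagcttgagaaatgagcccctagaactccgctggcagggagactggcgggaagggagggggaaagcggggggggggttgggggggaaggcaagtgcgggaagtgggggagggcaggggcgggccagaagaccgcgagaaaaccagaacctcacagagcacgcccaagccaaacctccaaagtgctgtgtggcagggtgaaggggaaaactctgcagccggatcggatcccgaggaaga
Bdnf (start 4 of 6, plus strand, chr3:116637608-116637907): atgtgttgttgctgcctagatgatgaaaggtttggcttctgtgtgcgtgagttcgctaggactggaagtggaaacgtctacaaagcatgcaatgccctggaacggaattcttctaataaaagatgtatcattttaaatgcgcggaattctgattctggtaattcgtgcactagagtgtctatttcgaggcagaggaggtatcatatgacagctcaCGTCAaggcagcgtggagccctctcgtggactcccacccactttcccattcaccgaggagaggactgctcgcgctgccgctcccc
Vgf (minus strand, chr12:25276971-25277270): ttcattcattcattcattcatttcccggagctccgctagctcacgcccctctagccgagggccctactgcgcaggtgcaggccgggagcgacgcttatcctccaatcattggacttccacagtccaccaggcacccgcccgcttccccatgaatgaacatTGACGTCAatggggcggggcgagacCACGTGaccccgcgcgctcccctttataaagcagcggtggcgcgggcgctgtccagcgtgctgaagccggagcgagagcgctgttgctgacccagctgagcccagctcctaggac
Nptx2 (minus strand, chr12:15161996-15162295): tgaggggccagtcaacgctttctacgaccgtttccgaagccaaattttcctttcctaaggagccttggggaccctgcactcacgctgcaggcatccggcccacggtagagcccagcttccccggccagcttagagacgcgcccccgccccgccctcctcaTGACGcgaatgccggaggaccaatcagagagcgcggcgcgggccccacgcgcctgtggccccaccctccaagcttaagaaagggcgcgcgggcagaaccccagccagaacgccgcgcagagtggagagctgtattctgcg
Vgf held the full element from base -90 to base -83 relative to its start, and an E-box from -65 to -60. Nptx2 held the core from -90 to -86, and the shown Bdnf window held it from -35 to -31. None of these letters occurred in the 3 Ntf3 windows, and of the other Bdnf windows the second held an E-box. Of 33469 windows of all genes, 1.83% held the full element, 21.2% the core and 6.42% the E-box. A match is a description of the letters and no evidence of binding.

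The libraries held the markers of the labelled tissue. Of 8 dentate granule cell markers 6 were tested, and none was at 0 in any rat. Their summed level had a median of 13321 in YNG, 12140 in AA, 11339 in AV and 11285 in ADQ. Markers of the neighbouring CA1 field were also present, with a summed level from 1937 to 44790 over the 44 rats. For 3 rats the granule cell sum was the lowest, at 3076 (AA rat 4107), 5889 (AA rat 3996) and 6519 (AV rat 3989), and these rats also had the 3 lowest sums of CA3 and mossy cell markers. AA rat 4107 and AV rat 3989 had the 2 highest CA1 sums. The estimated depth was 10166556 to 24328321 reads per rat. Rats were split by their numbers into series a (22 rats) and series b (22 rats). In series b the AV rats were numbered 4566 to 4572, and the AA and ADQ rats 4031 to 4110. Within series b, treatment and run of numbers therefore cannot be told apart when AV is compared with AA or ADQ. The labels name no batch, so animals, dissections and libraries of a series cannot be told apart. In bulk tissue, fewer cells of a type and less RNA per cell cannot be told apart.

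**Figure D1:**
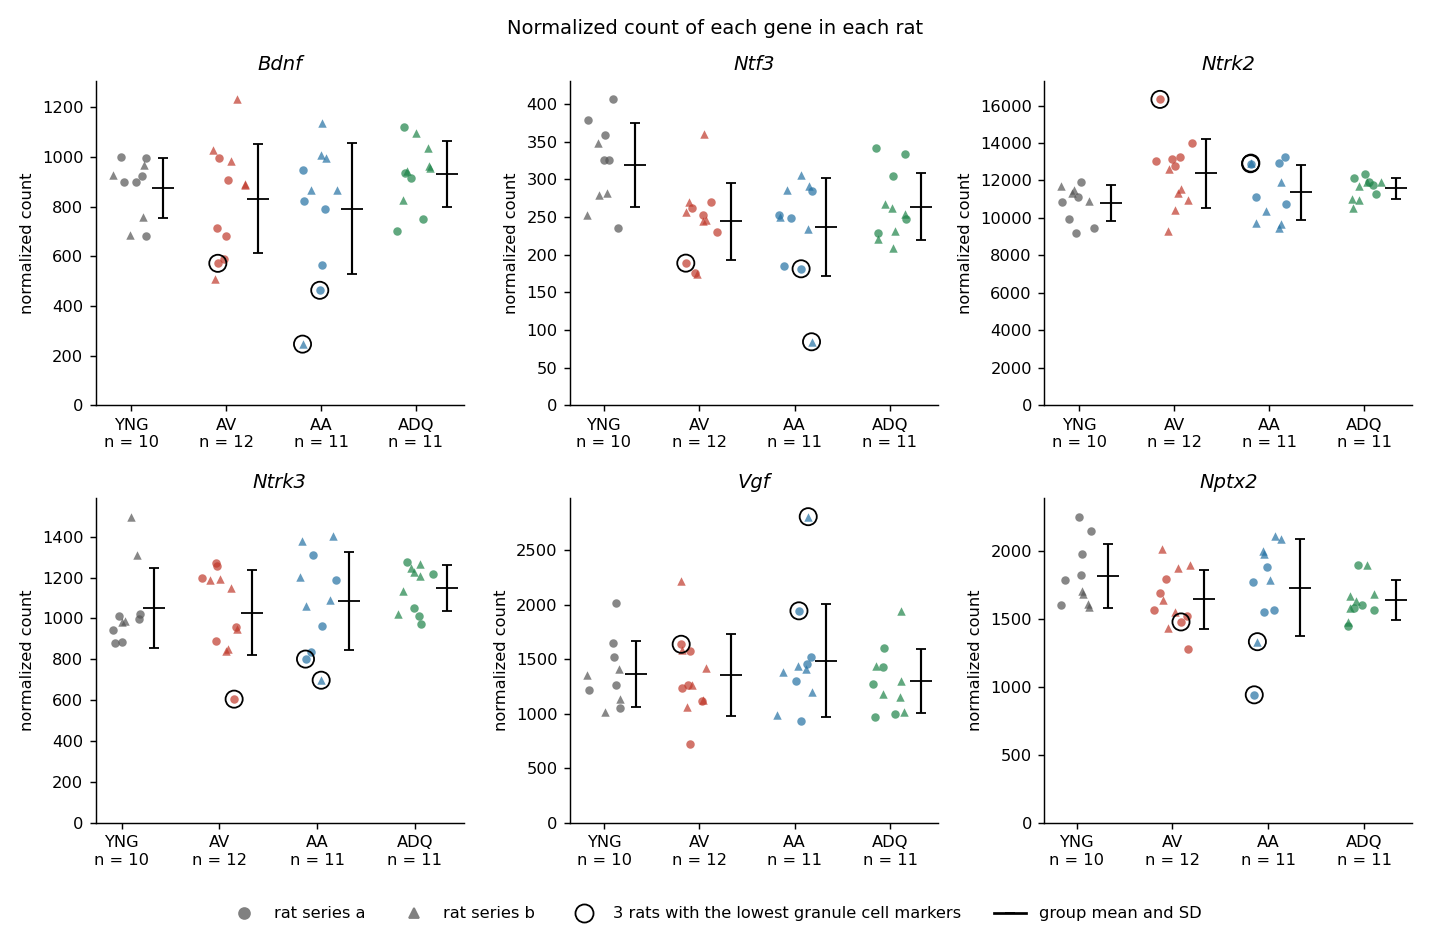
Normalized count of each gene (vertical axis, linear from 0) in each rat by group, with circles for series a, triangles for series b, and the mean and SD beside each group. Ntf3 lies lower in the older groups than in YNG, while the 3 ringed rats with the lowest granule cell markers hold among them the lowest Bdnf, Ntf3, Ntrk3 and Nptx2 values and the highest Ntrk2 and Vgf values.

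Ntf3 was the 1 member called for all older rats together, and it was lower than in YNG. Its normalized count ranged in YNG from 236 to 406 with a median of 326. The ADQ rats ranged from 209 to 342 (median 254), the AA rats from 84.3 to 306 (median 250.5) and the AV rats from 174 to 361 (median 249). The groups overlapped, but 31 of 34 older rats were below the YNG median, and 12 were below the lowest YNG rat. YNG had the highest mean, 319 ± 55.7 (SD, n = 10), followed by ADQ with 264 ± 44.8 (n = 11), AV with 244 ± 50.7 (n = 12) and AA with 237 ± 64.9 (n = 11).

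In the comparison of older rats with YNG, taken as the mean of the 3 older group means, Ntf3 fell by 0.38 ± 0.12 (SE) on the log2 scale, to 0.767 of the YNG level (limma p = 0.00322, Benjamini-Hochberg adjusted p = 0.0336). Of the 6 members, 1 was called in this comparison at the study's threshold of an unadjusted p of 0.05, where 32.4% of all genes tested were called, and 1 passed the adjusted threshold, where 14.9% of all genes did. In AV against YNG, where no rat received a drug, the difference of Ntf3 was -0.39 ± 0.15 (p = 0.0101, Benjamini-Hochberg adjusted p = 0.122 by limma). In AA against YNG it was -0.48 ± 0.15 (p = 0.00233, Benjamini-Hochberg adjusted p = 0.0541 by limma). In ADQ against YNG it was -0.27 ± 0.15 with a 95% interval from -0.57 to 0.028 (p = 0.0741), which missed the threshold. No pair of older groups was called for Ntf3, so neighbours in that order were not told apart among the older groups. The difference was -0.089 for AA against AV (interval -0.38 to 0.20), 0.12 for ADQ against AV (-0.17 to 0.41) and -0.21 for AA against ADQ (-0.50 to 0.085).

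Without the 3 rats with few granule cell markers, Ntf3 fell by 0.31 ± 0.092 with age (p = 0.00174), where 33.7% of all genes were called. It then fell by 0.36 in AV (p = 0.00215, 21.6% of all genes called) and by 0.29 in AA (p = 0.0166, 24.6%), and the ADQ difference of -0.27 passed the threshold (p = 0.0178, 30.8%). No ADQ or YNG rat was left out, so the size of the ADQ difference was unchanged. Only its SE, which rests on the spread of all groups, fell from 0.15 to 0.11. Within series a the age difference was -0.44 ± 0.13 (p = 0.00228), where 38% of all genes were called, and within series b it was -0.27 ± 0.22 (p = 0.221), where 8.82% were. In AA against YNG it was -0.56 in series a and -0.36 in series b, with 28.6% and 12.4% of all genes called. The test of the age difference between the series gave 0.18 ± 0.25 (p = 0.489). Endothelial markers moved with the groups. All 5 tested markers were called higher in AV than in YNG, where 21.3% of all genes were called in either direction. By adjusted p 2 of them passed, against 2.35% of all genes. Their summed level spanned 2075 to 8122 in AV against 1196 to 4036 in YNG, 2125 to 2656 in ADQ and 2153 to 3417 in AA. With their score as a covariate the Ntf3 difference was -0.19 in AV (p = 0.263) and -0.26 for all older rats (p = 0.0549), neither called. In AA that score left Ntf3 called, at -0.38 (p = 0.0160). The part of the endothelial cells in the result was not tested. Of the 6 tested granule cell markers, 0 were called higher and 2 lower in all older rats. Of all genes 15.7% were higher and 16.7% lower there. By adjusted p 1 of the 6 passed, against 14.9% of all genes. Their mean log2 value was 10.4 in YNG and ADQ and 10.2 in AV and AA. The part of granule cells in the Ntf3 difference was not tested. With equal totals per rat the AV difference was -0.29 (p = 0.0529), which is -0.39 relative to the shift of all genes under that scaling. In AA against YNG, the score of immediate early genes, which are induced within minutes of activity, took Ntf3 as a covariate to -0.32 (p = 0.0536).

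No difference of Bdnf between groups passed the test. In YNG its normalized count ranged from 683 to 998 with a median of 912. The ADQ rats ranged from 703 to 1122 (median 945), the AV rats from 510 to 1232 (median 890) and the AA rats from 246 to 1135 (median 865), and the 4 ranges overlapped. The lowest 2 of all rats were AA rats 4107 and 3996, at 246 and 463, which had the lowest granule cell markers. The log2 difference from YNG was -0.10 ± 0.17 in AV (p = 0.537), -0.23 ± 0.17 in AA (p = 0.177) and 0.092 ± 0.17 in ADQ (p = 0.594). For all older rats it was -0.082 with a 95% interval from -0.37 to 0.20. Without the 3 rats the AA difference turned to 0.015 ± 0.13 (p = 0.908). The largest difference between treatments was AA against ADQ at -0.33 ± 0.17 (p = 0.0567), and without single rats it ranged from -0.17 (without AA rat 4107) to -0.39 (without AA rat 4069) and was called in 8 of 44 such fits. Without the 3 rats it was -0.077 ± 0.12 (p = 0.534), and that of Ntf3 in AA against ADQ was -0.017 (p = 0.879) in place of -0.21 (p = 0.159).

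Ntrk2, the BDNF receptor, was higher in AV than in YNG. Its normalized count in YNG ranged from 9171 to 11912 with a median of 11017. The AV rats ranged from 9285 to 16329 (median 12698), the ADQ rats from 10549 to 12370 (median 11737) and the AA rats from 9459 to 13245 (median 11097). Of the 12 AV rats 7 were above the highest YNG rat, and 17 of all 34 older rats were. Ntrk2 rose by 0.19 ± 0.074 (SE) on the log2 scale in AV (p = 0.0133, Benjamini-Hochberg adjusted p = 0.136 by limma). The difference from YNG was 0.070 ± 0.076 in AA (p = 0.362) and 0.11 ± 0.076 in ADQ (p = 0.162). For all older rats it was 0.12 ± 0.062 (p = 0.0549). That age difference passed the threshold with the rat series as a covariate (0.14, p = 0.0227), with upper quartile scaling (0.15, p = 0.0256) and in the permutation test (p = 0.0425), but not without the 3 rats (0.096, p = 0.101). With equal totals per rat it also passed (0.25, p = 0.00163), where 31.8% of all genes were called higher. Relative to the shift of all genes, the age difference was 0.12 under either scaling. Neither treated group was called against AV, with -0.12 for AA (interval -0.27 to 0.024) and -0.083 for ADQ (interval -0.23 to 0.062).

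The higher Ntrk2 was present in series a and not detected in series b. In series a the 6 AV rats ranged from 12794 to 16329 and the 6 YNG rats from 9171 to 11912, with no overlap. In series b the 6 AV rats ranged from 9285 to 12602, and the 4 YNG rats, from 10930 to 11691, lay inside that range. The AV difference was 0.40 ± 0.090 in series a (p = 0.000157), where 33.4% of all genes were called, and -0.048 ± 0.099 in series b (p = 0.631), where 6.31% were. For all older rats the difference was 0.28 in series a (p = 0.00114) and -0.049 in series b (p = 0.567), with 38% and 8.82% of all genes called. The change between the series was -0.33 ± 0.11 (limma p = 0.00418, Benjamini-Hochberg adjusted p = 0.0691), a test that 20.6% of all genes passed unadjusted. AV rat 3989, with the highest Ntrk2 of all rats at 16329, also had the highest sums of astrocyte markers (112491) and of endothelial (8122), oligodendrocyte (174723) and microglia markers (7507). Of 6 oligodendrocyte markers 5 were called higher in AV than in YNG, with a median of 0.39, and 0 passed the adjusted threshold. Of all genes 21.3% were called there in either direction, and 2.35% by adjusted p. With the endothelial score as a covariate the AV difference was 0.021 (p = 0.786), and with the astrocyte score it was 0.11 (p = 0.0505). The part of these cell types was not tested.

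No difference of Ntrk3, the NT-3 receptor, passed the test. Its normalized count ranged from 970 to 1275 in ADQ (median 1208), from 697 to 1406 in AA (median 1091), from 605 to 1273 in AV (median 1052) and from 881 to 1498 in YNG (median 991). The groups overlapped, although 10 of 11 ADQ rats were above the YNG median. The log2 difference from YNG was -0.042 ± 0.11 in AV, 0.032 ± 0.12 in AA and 0.14 ± 0.12 in ADQ (p = 0.236), and ADQ against AV gave 0.18 ± 0.11 (p = 0.109). The 3 lowest of all rats were AV rat 3989 at 605, AA rat 4107 at 697 and AA rat 3996 at 801, the 3 rats with the fewest granule cell markers. Without them the age difference was 0.10 ± 0.079 (p = 0.201).

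Vgf, the precursor of secreted peptides, varied widely from rat to rat, and no group difference passed the test. The AA rats ranged from 933 to 2806 (median 1413), the YNG rats from 1015 to 2012 (median 1306), the ADQ rats from 973 to 1944 (median 1276) and the AV rats from 724 to 2215 (median 1263), so the groups overlapped. The highest value, 2806, belonged to AA rat 4107, the rat with the highest sums of CA1 markers (44790) and of immediate early genes (20881). The age difference was -0.0028 ± 0.13 on the log2 scale with a 95% interval from -0.26 to 0.25. The largest of the 7 differences was AA against ADQ at 0.16 ± 0.15 (p = 0.301), and without the 3 rats the AA difference from YNG was -0.068 in place of 0.091.

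Nptx2, a pentraxin that clusters AMPA receptors at synapses, had medians in AV and ADQ below that of YNG, and no group difference passed the test. Its normalized count ranged from 939 to 2106 in AA (median 1787), from 1585 to 2249 in YNG (median 1741), from 1280 to 2014 in AV (median 1600.02) and from 1444 to 1894 in ADQ (median 1599). No older rat exceeded the highest YNG rat, and 15 of 34 were below the lowest. The log2 difference was -0.15 ± 0.096 in AV (p = 0.138), -0.097 ± 0.098 in AA (p = 0.328), -0.14 ± 0.098 in ADQ (p = 0.147) and -0.13 ± 0.081 for all older rats (p = 0.117), none called. In series a the age difference was -0.31 ± 0.11 (p = 0.0109), where 38% of all genes were called. In series b it was 0.083 ± 0.10 (p = 0.417), where 8.82% were. The test between the series gave 0.39 ± 0.15 (limma p = 0.0151, Benjamini-Hochberg adjusted p = 0.133), a test that 20.6% of all genes passed unadjusted. AA rat 3996 had the lowest value of all rats at 939, and without the 3 rats Nptx2 was higher in AA than in AV by 0.17 (p = 0.0370) and than in ADQ by 0.18 (p = 0.0255), where 5.06% and 4.25% of all genes were called.

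**Figure D2:**
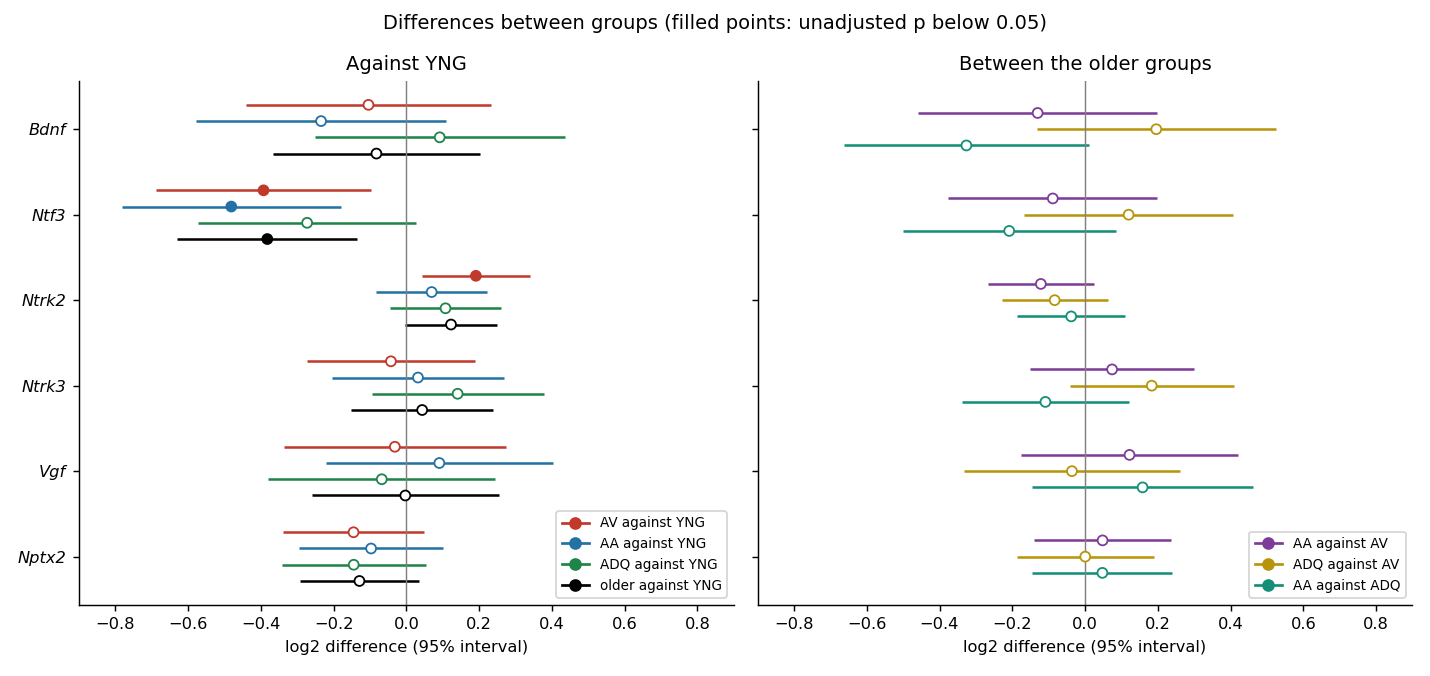
Log2 differences of the 6 genes (horizontal axis) with 95% intervals from the fit across all genes, against YNG on the left and between older groups on the right, filled where the unadjusted p was below 0.05. Ntf3 lies at -0.38 for all older rats and Ntrk2 at 0.19 for AV, and no filled point stands on the right.

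By comparison, 2 of 6 members were called in AV against YNG, Ntf3 lower and Ntrk2 higher, against 21.3% of all genes, and 0 passed the adjusted threshold, which 2.35% of all genes did. In AA against YNG 1 of 6 was called, Ntf3, against 26.6% of all genes, and again 0 passed the adjusted threshold (3.85% of all genes). In ADQ against YNG 0 of 6 were called by limma, against 28.1% of all genes, or 7.08% by adjusted p. The permutation test of each gene alone called 3 there, Ntf3 (p = 0.0216), Ntrk2 (p = 0.0264) and Nptx2 (p = 0.0431). That test was run on the 6 members only, so no share of all genes can be set beside its count. In AA against AV, ADQ against AV and AA against ADQ limma called 0 of 6, with 4.51%, 9.32% and 4.53% of all genes called. With 6 genes the limma counts do not stand apart from the background. The comparisons with YNG share the same YNG rats, and those with AV the same AV rats. Within series a, 27.4% of all genes were called in ADQ against YNG and 5.67% in ADQ against AV, where Ntf3 (0.34, p = 0.0477) and Ntrk2 (-0.21, p = 0.0385) were called.

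**Figure D3:**
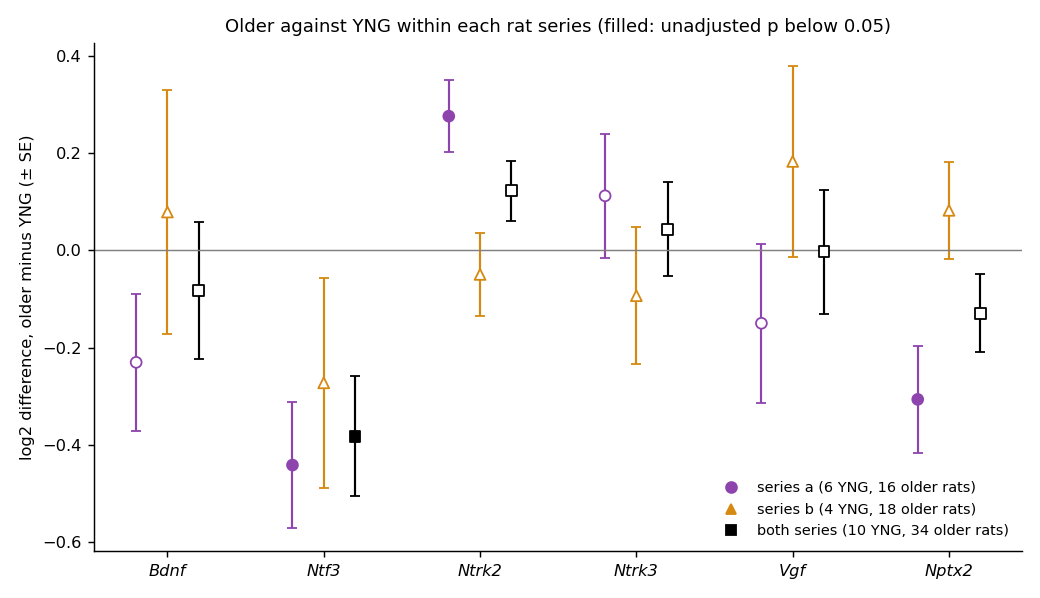
Log2 difference of older rats from YNG (vertical axis, with SE) within series a, within series b and over both, filled where the unadjusted p was below 0.05. Ntf3 lies below 0 in both series and the other 5 genes on opposite sides of 0, and the unadjusted test of the difference between the series passed for Ntrk2 and Nptx2 only.

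The genes varied together from rat to rat within groups. For this, log2 values were centred on the group mean, and 39 relations were tested by permutation within groups with Benjamini-Hochberg adjustment over the 39, where the smallest p that 100000 permutations can give is 1e-05. All points share a library and its size factor. Of 15 pairs of members, 10 had an adjusted p of r below 0.05. The share over pairs of other genes was not computed, so this count is not read as particular to these genes. Bdnf and Ntf3 rose and fell together, with r = 0.85 (permutation p = 1e-05, adjusted p = 9.7e-05) and Spearman coefficient 0.70 (p = 2e-05), r = 0.71 without the 2 rats farthest from the median, and r = 0.80 and 0.93 within series a and b. Nptx2 followed both ligands, with r = 0.66 for Bdnf (Spearman coefficient 0.66, permutation p = 0.00042 and 1e-05) and r = 0.62 for Ntf3 (Spearman coefficient 0.67, permutation p = 0.00113 and 1e-05). Without the 2 farthest rats these were 0.57 and 0.65.

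Ntrk2 ran against the ligands and Nptx2. Its r was -0.58 with Bdnf (Spearman coefficient -0.59, permutation p = 0.00018 and 0.00021), -0.50 with Ntf3 (Spearman coefficient -0.45, permutation p = 0.00073 and 0.00333) and -0.61 with Nptx2 (Spearman coefficient -0.64, permutation p = 4e-05 and 2e-05). Without the 2 farthest rats these were -0.57, -0.49 and -0.61. They were weaker in series a, at -0.33, -0.27 and -0.33, than in series b, at -0.74, -0.81 and -0.78, and that difference was not tested. Ntrk3 and Vgf opposed each other with r = -0.69 (Spearman coefficient -0.69, both permutation p = 1e-05), -0.64 without the 2 farthest rats, and -0.73 and -0.71 within the series. Bdnf and Ntrk3 gave r = 0.39 (permutation p = 0.0261, adjusted p = 0.0392) but 0.11 without AA rats 4107 and 3996, so that relation rests on those rats, as do Bdnf with Vgf (-0.50, then -0.22) and, without 4107 and V2, Ntf3 with Vgf (-0.47, then -0.27).

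**Figure D4:**
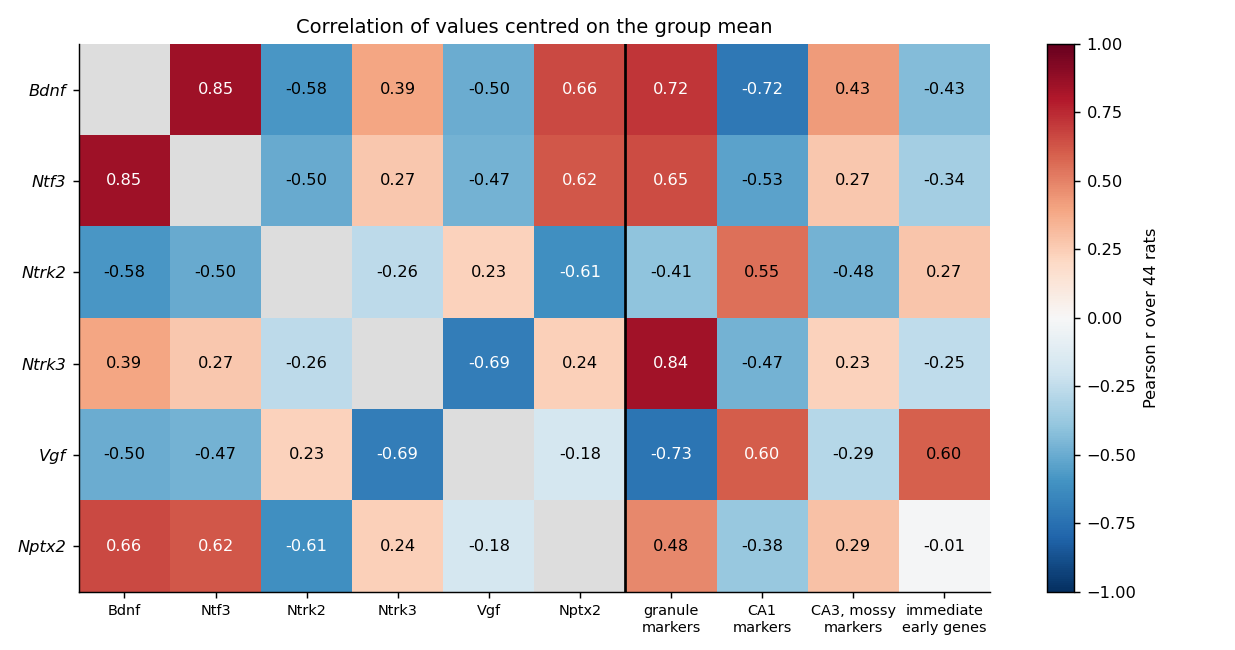
Pearson r over 44 rats, after centring on the group mean, between the 6 genes (left columns) and with the 4 marker scores (right columns), from blue at -1 to red at 1. Bdnf and Ntf3 stand at 0.85 and Ntrk3 with granule cell markers at 0.84, while Vgf with granule cell markers is at -0.73.

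Members also varied with the scores of cell type markers, while the cell makeup itself was not measured. The granule cell score is the mean log2 value of the 6 tested granule cell markers. Ntrk3 followed it with r = 0.84 (Spearman coefficient 0.87, both permutation p = 1e-05), and 0.82 without the 2 farthest rats. Vgf ran against it with r = -0.73 (Spearman coefficient -0.71, both permutation p = 1e-05), and -0.67 without them. Both held within series a (0.89 and -0.75) and series b (0.90 and -0.79), and without the 3 rats (0.81 and -0.65). Bdnf and Ntf3 gave r = 0.72 and 0.65 (permutation p = 0.00029 and 0.00103, Spearman coefficient 0.43 and 0.34), which were 0.27 and 0.20 without the 3 rats, so most of that relation rests on them. With the CA1 score, Bdnf gave r = -0.72 (Spearman coefficient -0.63, permutation p = 2e-05 and 4e-05), -0.63 without the 2 farthest rats, and -0.38 and -0.83 within series a and b. Vgf gave 0.60 (Spearman coefficient 0.54, permutation p = 9e-05 and 0.00032), and Ntrk2 gave 0.55 (Spearman coefficient 0.49, permutation p = 0.00048 and 0.00215).

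The genes known to respond to activity did not follow immediate early genes alike. Vgf rose with their score, r = 0.60 (Spearman coefficient 0.58, permutation p = 7e-05 and 6e-05), 0.52 without the 2 farthest rats, and 0.61 and 0.72 within the series. Nptx2 showed no relation, r = -0.0087 (Spearman coefficient -0.037, permutation p = 0.958 and 0.818). Bdnf gave r = -0.43 (Spearman coefficient -0.35, permutation p = 0.00609 and 0.0285), which was -0.25 without the 2 farthest rats and -0.087 within series a. Whether these relations differ from each other was not tested.

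**Figure D5:**
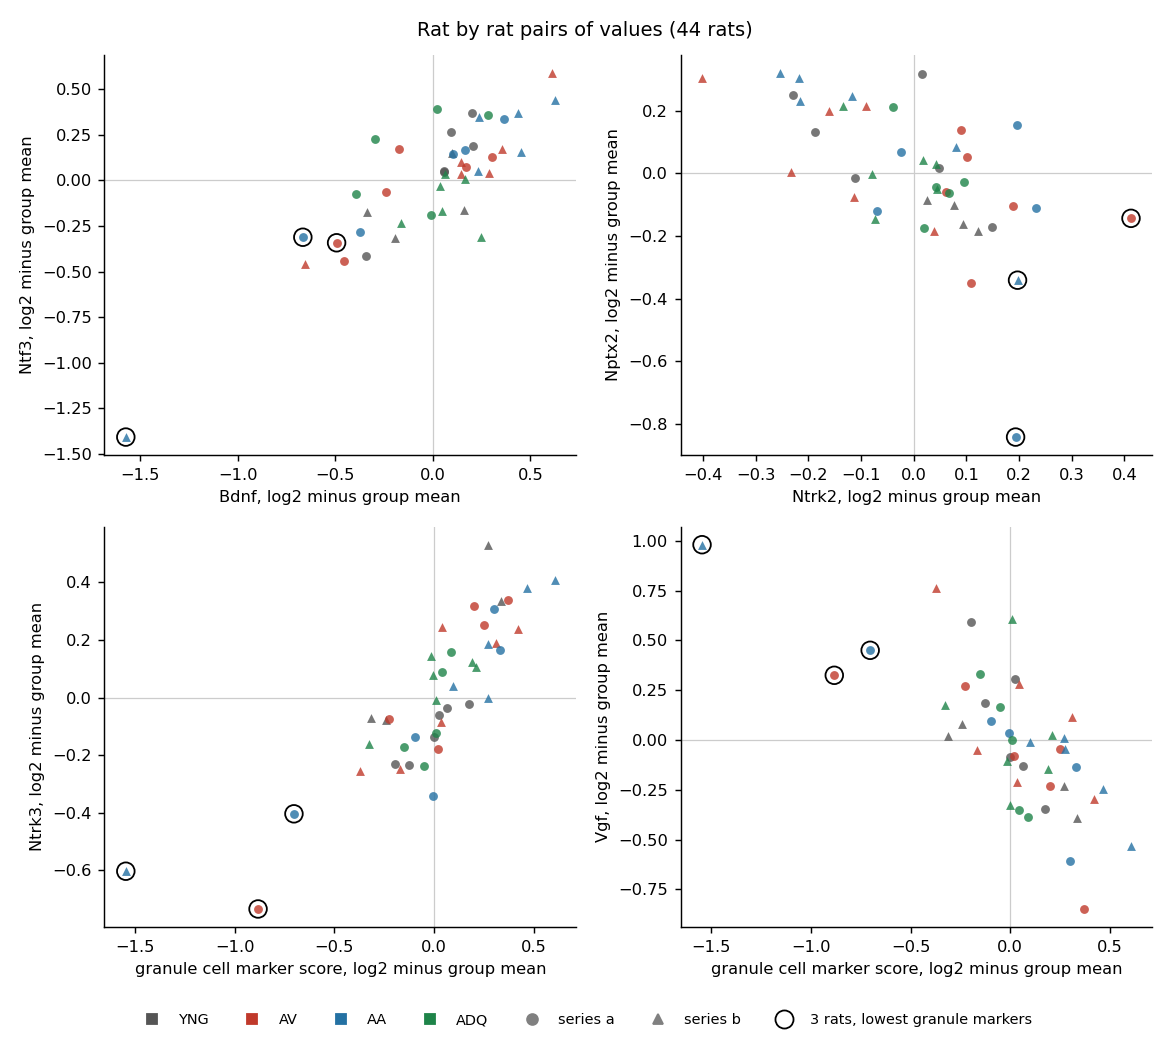
Values of 44 rats on the log2 scale minus the group mean, for Bdnf and Ntf3, Ntrk2 and Nptx2, and the granule cell score with Ntrk3 and with Vgf, colored by group with circles for series a and triangles for series b. The r of the 4 panels is 0.85, -0.61, 0.84 and -0.73, and without the 3 ringed rats it is 0.69, -0.62, 0.81 and -0.65.

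The genes most like each member were listed by r over the 44 rats, after centring, among 13704 genes with a mean of at least 20, as a description with no test. For Bdnf they were Kctd4 (0.89), Arg1 (0.89) and C1ql2 (0.89), and for Ntf3 they were Nhlh1 (0.90), RT1-M6-2 (0.88) and C1ql2 (0.87). C1ql2, a secreted synaptic protein, is in the granule cell marker list. For Ntrk2 they were Plpp3 (0.87), Ttyh1 (0.86) and Pdgfra (0.84). For Ntrk3 they were Rimbp2 (0.90), Fat4 (0.90) and Celf2 (0.90), and for Vgf they were Cdc42ep2 (0.86), Chst8 (0.86) and Rasd2 (0.85). For Nptx2 they were Limd2 (0.84), the kinase Mapk14 (0.83) and Otub2 (0.82). Without the 3 rats the values for Bdnf fell to 0.77, 0.77 and 0.74, and those for Ntrk2 were 0.86, 0.84 and 0.79.

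Each gene was summed over rows of the table that carry no transcript name. Bdnf had 8 rows, Ntrk3 4, Ntf3 and Ntrk2 3 each, Nptx2 2 and Vgf 1. The share of a gene's sum held by its leading row was stable for Ntrk2 (71.4% to 89.1% over the rats) and for Ntrk3 (63.2% to 84.1%), but ran from 12.9% to 48.4% for Bdnf and from 18.5% to 82.5% for Ntf3. Among rows with a mean of at least 5, the leading row of Ntrk2 rose in AV by 0.21 ± 0.088 (p = 0.0232, Benjamini-Hochberg adjusted p = 0.211 by limma) and its row 3 rose in all older rats by 0.41 ± 0.16 (p = 0.0168, Benjamini-Hochberg adjusted p = 0.0975). Row 2 of Ntf3 fell by 1.04 ± 0.38 in AV (p = 0.00938, Benjamini-Hochberg adjusted p = 0.152). Of all rows 17.5% were called in AV and 27.3% in all older rats. Row 1 of Ntf3 fell by 0.51 in all older rats (p = 0.0296) and by 0.62 in AA (p = 0.0296), where row 3 of Ntrk2 rose by 0.49 (p = 0.0193) and Bdnf row 2 fell by 0.70 (p = 0.0345) and its row 4 by 0.69 (p = 0.0376), against 22.1% of all rows. In ADQ against YNG row 3 of Ntrk2 rose by 0.52 (p = 0.0128), against 23.4% of all rows. Between older groups, where the sums of the 6 genes gave no call, row 4 of Bdnf was lower in AA than in AV (-0.85, p = 0.00813) and than in ADQ (-0.80, p = 0.0135). Row 6 of Bdnf was lower in AA than in ADQ (-1.28, p = 0.0206) and higher in ADQ than in AV (1.31, p = 0.0154). Row 2 of Ntf3 was higher than in AV in AA (0.88, p = 0.0235) and in ADQ (0.76, p = 0.0478). Of all rows 3.93% were called between AA and AV, 3.95% between AA and ADQ and 7.58% between ADQ and AV, and no row of the 6 genes passed the adjusted threshold in any comparison. Shares of the Bdnf and Ntf3 rows depend on how reads were divided among rows and are not read further.

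Of 8 tested genes of the list of remaining neurotrophins and their receptors, 2 were higher and 2 lower in all older rats, where 15.7% of all genes were higher and 16.7% lower. Sorcs2, a sortilin-family receptor, fell by 0.25 ± 0.082 (p = 0.00427, Benjamini-Hochberg adjusted p = 0.0380 by limma). Sort1, the sortilin that binds proneurotrophins, rose by 0.13 ± 0.057 (p = 0.0216), and Ngfr, the p75 receptor, rose by 0.93 ± 0.35 (p = 0.0102) from a low level. The normalized count of Ngfr was 9.33 ± 7.83 (SD) in YNG, 11.1 ± 3.17 in ADQ, 18.9 ± 11.5 in AV and 27.1 ± 30.4 in AA. Slitrk5, which fell by 0.12 (p = 0.0224), is a coreceptor of TrkB. Against AV 0 of the 8 were called by limma in either treated group, where 1.4% of all genes were higher and 3.1% lower in AA, and 3.42% higher and 5.9% lower in ADQ. The smallest p in AA against AV was that of Sorcs1 (-0.19, p = 0.198), and the smallest in ADQ against AV were those of Sort1 (0.10, p = 0.120) and Slitrk5 (0.090, p = 0.131). Ntf4 was under the filter.

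Genes that process and release neurotrophins were higher in 5 of 15 and lower in 0 of 15 in all older rats, where 15.7% of all genes were higher and 16.7% lower, with a median log2 difference of 0.086 against 0.0039 over all genes. Plat, the tissue plasminogen activator that can lead to cleavage of proBDNF, rose by 0.50 ± 0.16 (p = 0.00331, Benjamini-Hochberg adjusted p = 0.0341 by limma). Its normalized count was 1231 ± 1083 (SD) in AV, against 551 ± 102 in YNG, 633 ± 88.1 in ADQ and 720 ± 95.9 in AA. Serpini1, the neuronal inhibitor of that protease, rose by 0.20 ± 0.069 (p = 0.00519), and Furin, a proneurotrophin convertase, rose by 0.27 ± 0.096 (p = 0.00656). Plat was lower than in AV in AA, by 0.50 (p = 0.0110, Benjamini-Hochberg adjusted p = 0.999), and in ADQ, by 0.69 (p = 0.000663, Benjamini-Hochberg adjusted p = 0.185). Pcsk6, a further convertase, was lower by 0.25 in AA (p = 0.0236) and by 0.30 in ADQ (p = 0.00557). In ADQ against AV 4 genes of the list were higher and 3 lower, where 3.42% and 5.9% of all genes were. Endothelial markers were also highest in AV, as given above, and their part in the Plat values was not tested.

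Of 45 genes of Trk signaling, 8 were higher and 9 lower in all older rats, near the background of 15.7% and 16.7% of all genes. The lower ones were led by the kinase Akt2 (-0.33, p = 1.2e-05), the MAP kinase kinase Map2k5 (-0.31, p = 2.84e-05) and the GTPase Hras (-0.52, p = 4.75e-05). In AA against AV the adapter Shc2 was higher (0.36, p = 0.0113) and Shc4 lower (-0.58, p = 0.0353), where 1.4% of all genes were higher and 3.1% lower. In ADQ against AV 1 gene was higher, the Trk substrate Kidins220 (0.14, p = 0.0112), and 5 were lower, among them the adapter Shc1 (-0.22, p = 0.0148), against 3.42% and 5.9% of all genes. Of 14 genes of p75 signaling, 3 were higher and 3 lower with age, again beside 15.7% and 16.7% of all genes. Arhgdia, a GTPase inhibitor, fell by 0.34 (p = 0.00428), Bex3, a p75-associated protein, fell by 0.23 (p = 0.00439), and the kinase Ripk2 rose by 0.28 (p = 0.0111). In that list 0 genes were called between either treated group and AV by limma, and the smallest p were those of Rhoa (-0.16, p = 0.165) and Bex3 (0.12, p = 0.200) in AA and of Mapk10 (0.12, p = 0.0761) and Mapk8 (0.27, p = 0.106) in ADQ.

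Of 21 regulators of Bdnf transcription, 5 were higher and 1 lower in all older rats, where 15.7% of all genes were higher and 16.7% lower. Rest, a repressor that silences neuronal genes and can act on Bdnf, rose by 0.74 ± 0.17 (p = 0.000109, Benjamini-Hochberg adjusted p = 0.00783 by limma). Its normalized count was 44.6 ± 15.7 (SD) in YNG, against 76.3 ± 15.4 in ADQ, 74.97 ± 23.9 in AV and 69.7 ± 26.6 in AA. Usf2, an E-box factor, fell by 0.36 ± 0.10 (p = 0.000877), and Nfkb1 rose by 0.22 ± 0.084 (p = 0.0115). Npas4, an activity-induced factor that acts on Bdnf promoters, was higher in AA than in AV by 0.59 ± 0.29 (p = 0.0490), and the deacetylase Hdac2 was higher in ADQ than in AV by 0.25 ± 0.091 (p = 0.00920). Of the other smallest p, Hdac2 gave 0.092 (p = 0.315) in AA and Usf2 -0.19 (p = 0.114) in ADQ. Bdnf itself was called in none of these comparisons, as given above.

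A list of 11 genes held pentraxins, AMPA receptor proteins and the secreted synaptic proteins C1ql2 and C1ql3. Of these, 1 was higher and 4 lower in all older rats, where 15.7% of all genes were higher and 16.7% lower, with a median of -0.18. C1ql3, a secreted synaptic organizer, fell by 0.77 ± 0.15 (p = 4.09e-06, Benjamini-Hochberg adjusted p = 0.00231 by limma), from a normalized count of 2410 ± 806 (SD) in YNG to 1236 ± 292 in AA, 1436 ± 311 in ADQ and 1539 ± 645 in AV. C1ql2, which is also in the granule cell marker list, fell by 0.42 (p = 0.0142), and Cnih2, an AMPA receptor auxiliary protein, fell by 0.31 (p = 0.0222). In ADQ against AV the pentraxin receptor Nptxr was higher by 0.43 (p = 0.0489), and Nptx1 gave 0.36 (p = 0.0619). In AA against AV 0 of the 11 were called by limma, with C1ql3 at -0.26 (p = 0.131) and Gria2 at -0.12 (p = 0.196). Of 12 granins and other cargo of dense-core vesicles, 1 was higher and 2 lower with age, against the same background. Chga fell by 0.27 (p = 0.00170), the opioid precursor Penk fell by 0.34 (p = 0.0172), and the interneuron peptide Sst rose by 0.26 (p = 0.0165). Chgb was higher in ADQ than in AV by 0.35 (p = 0.00799), Scg2 gave 0.11 (p = 0.336), and in AA against AV Sst gave 0.24 (p = 0.0535) and Nucb2 -0.20 (p = 0.188).

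Of 23 immediate early genes, 5 were higher and 0 lower in all older rats, where 15.7% of all genes were higher and 16.7% lower. Of the same list 11 were higher in AA against YNG, where 12.6% of all genes were higher. Fosb rose by 0.31 ± 0.089 with age (p = 0.00128, Benjamini-Hochberg adjusted p = 0.0221 by limma), Sik1 rose by 0.75 ± 0.26 (p = 0.00516) and Npas4 rose by 0.65 ± 0.25 (p = 0.0133). Against AV, Per1 was higher in AA by 0.22 (p = 0.0342), while Ier2 and Junb were lower in ADQ by 0.52 (p = 0.00791) and 0.34 (p = 0.0289). Vgf and Nptx2 were called in none of these comparisons, as given above. With the values scaled to equal totals per rat, which raised the median over all genes in older rats by 0.13, the lists split differently with age, and of all genes 31.8% were then called higher and 6.49% lower. Trk signaling then had 18 higher and 7 lower genes, p75 signaling 5 and 1, the remaining receptors 3 and 0, the pentraxin list 2 and 1, and the granin list 4 and 1. Relative to that shift, Ntf3 stood at -0.38 and Ntrk2 at 0.12.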

How the data were processed

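The deposited values are a signal: the authors aligned poly(A) reads to rn6 with STAR 2.5.3a, quantified them in Partek Flow and normalized them by the DESeq2 median ratio, without a length correction. The annotation is not given in the sources used here. Rows were summed per gene identifier. Of low values of genes with 1 row, 79.2% to 84.2% were whole multiples of 1 read (tolerance 0.05), so no count model was used. Estimated depth was 10166556 to 24328321 reads per rat, and the number of rats sets the precision.

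Log2(value + 1) of the 15598 genes with a mean of at least 5 was fitted with limma 3.58.1 in R 4.3.3 (trend, empirical Bayes, two-sided) as 1 fit of the 4 groups, with an unadjusted p of 0.05 as the study's threshold for a call and Benjamini-Hochberg adjustment over all genes tested. Differences are on that scale. Each rat is 1 replicate. The scripts were tested on simulated data. Permutation tests used numpy 2.4.6 with 100000 resamples, and the ranks for Spearman coefficients came from scipy 1.17.1. Beside all 6 members, the named genes of each list were the 3 with the smallest p for all older rats against YNG and the 2 with the smallest p in AA and in ADQ against AV. A gene that this rule names is not reported here. Slitrk5 was named after its values were seen. Members and lists were chosen with earlier results of these data known. The omission of 3 rats and 3 of the cell type covariates were added after the values were seen. Alternatives were other pseudocounts, filters, scalings, weights, covariates, single series, groups alone, permutation, and leaving out each rat.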

Additional observations from a re-analysis of the deposited data

Results flagged for a closer look

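The change of Ntrk2 from YNG to all older rats differed between the series, by -0.33 ± 0.11 (SE, series b minus series a, log2) with limma p = 0.00418 and a Benjamini-Hochberg adjusted p of 0.0691. It was 0.28 in series a and -0.049 in series b. For Nptx2 the same difference was 0.39 ± 0.15 with limma p = 0.0151 and a Benjamini-Hochberg adjusted p of 0.133, from -0.31 in series a and 0.083 in series b. Neither passed the adjusted threshold, and 20.6% of all genes had an unadjusted p below 0.05 in this test. In series a 0.42% to 1.60% of the summed values lay in the single feature AABR07000398.1, and in series b 1.71% to 11.1% did, so the series also differ there. Animals, dissections and libraries of a series cannot be told apart, and no explanation was tested. No value of a member stood apart from the rest of the YNG rats by Dixon's gap test. That check was run for groups of at most 10 rats, so the older groups were not checked.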

How the results depend on the processing

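The counts of members called rest on few genes and moved easily. In AV against YNG the count of 2 was 1 with equal totals per rat and with the astrocyte score as a covariate, and 0 in series b, by adjusted p and with the endothelial score. In AA against YNG the count of 1 was 2 with equal totals and with array weights, 3 in series a, and 0 in series b, with the immediate early gene score and by adjusted p. In ADQ against YNG the count of 0 was 1 with equal totals, with a fit of those groups alone, in series a, with the CA1, the CA3 and mossy cell or the granule cell score, and without the 3 rats, 3 with the astrocyte score and by permutation, and 4 with array weights. For all older rats the count of 1 was 2 with upper quartile scaling, equal totals, the series, CA1, CA3 and mossy cell or astrocyte covariate and by permutation, 3 in series a, 4 with array weights, and 0 in series b and with the endothelial score. In AA against AV it was 1 in place of 0 with the immediate early gene, CA1 or astrocyte score, with array weights and without the 3 rats. In AA against ADQ it was 1 with array weights, the astrocyte score and without the 3 rats, and in ADQ against AV it was 2 in series a. Leaving out each rat gave counts of 2 to 2 in AV, 1 to 1 in AA, 0 to 1 in ADQ and 1 to 2 in all older rats against YNG, 0 to 1 in AA against AV and in AA against ADQ, and 0 to 0 in ADQ against AV. The cause of these shifts was not tested. For array weights, the covariates and permutation no share of all genes called is given. Counts of members under those settings therefore cannot be set against a background.

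Of 798 values of single genes under other settings, 652 kept direction and side of the threshold, 45 became called, 12 lost the call and 89 turned direction. Of those 89, the 1 that had been called was Ntrk2 in AV against YNG, which turned in series b. Covariates of astrocyte, granule cell and endothelial scores and the omission of the 3 rats were chosen after seeing the data. The values that turned are given here with their comparison. Within series b, turned values were Bdnf at 0.11, Ntrk2 at -0.048, Vgf at 0.20 and Nptx2 at 0.066 (AV against YNG), Ntrk2 at -0.097, Ntrk3 at -0.079 and Nptx2 at 0.18 (AA against YNG), Ntrk2 at -0.0022, Vgf at 0.10 and Nptx2 at 0.0046 (ADQ against YNG), Ntf3 at -0.078, Ntrk2 at 0.046 and Nptx2 at -0.061 (ADQ against AV) and Bdnf at 0.079, Ntrk2 at -0.049, Ntrk3 at -0.093, Vgf at 0.18 and Nptx2 at 0.083 (all older rats against YNG). With the immediate early gene score as a covariate, turned values were Bdnf at 0.025 and Ntrk3 at 0.0090 (AV against YNG), Bdnf at 0.010 and Vgf at -0.22 (AA against YNG), Vgf at -0.023 (AA against AV), Vgf at 0.066 and Nptx2 at -0.00038 (ADQ against AV), Vgf at -0.088 (AA against ADQ) and Bdnf at 0.058 (all older rats against YNG). With the astrocyte score, turned values were Bdnf at 0.054 (AV against YNG), Nptx2 at -0.060 (AA against AV) and Bdnf at -0.0021, Ntf3 at -0.040, Ntrk2 at 0.019, Vgf at 0.049 and Nptx2 at -0.12 (ADQ against AV). With the granule cell score, turned values were Bdnf at 0.014 and Ntrk3 at 0.051 (AV against YNG), Vgf at -0.0096 (AA against YNG) and Vgf at 0.094 and Nptx2 at -0.052 (ADQ against AV). With the endothelial score, turned values were Bdnf at 0.20, Ntrk3 at 0.088 and Nptx2 at 0.041 (AV against YNG), Ntrk2 at -0.018 (AA against YNG), Nptx2 at -0.042 (AA against AV), Bdnf at -0.0093, Ntf3 at -0.015, Ntrk2 at 0.030, Vgf at 0.026 and Nptx2 at -0.12 (ADQ against AV) and Bdnf at 0.11 (all older rats against YNG). With equal totals per rat, turned values were Ntrk3 at 0.061 and Vgf at 0.071 (AV against YNG), Nptx2 at 0.052 (AA against YNG), Vgf at 0.073 (ADQ against YNG), Vgf at 0.0020 (ADQ against AV) and Bdnf at 0.049, Vgf at 0.13 and Nptx2 at 0.0022 (all older rats against YNG). Within series a, turned values were Ntrk3 at 0.064 (AV against YNG), Vgf at -0.029 (AA against YNG), Bdnf at -0.033 (ADQ against YNG), Ntf3 at 0.00047 and Nptx2 at -0.044 (AA against AV), Vgf at 0.018 (ADQ against AV) and Ntrk2 at 0.031 and Nptx2 at -0.10 (AA against ADQ). With array weights, turned values were Ntrk3 at 0.14 (AV against YNG), Bdnf at 0.049 and Ntf3 at 0.046 (AA against AV) and Nptx2 at -0.039 (ADQ against AV). Without the 3 rats, turned values were Ntrk3 at 0.024 (AV against YNG), Bdnf at 0.015, Vgf at -0.068 and Nptx2 at 0.035 (AA against YNG), Bdnf at 0.074, Ntf3 at 0.071 and Vgf at -0.0072 (AA against AV), Nptx2 at -0.013 (ADQ against AV), Ntrk3 at 0.0030 and Vgf at -0.00084 (AA against ADQ) and Bdnf at 0.016 (all older rats against YNG). With upper quartile scaling, turned values were Vgf at 0.00088 (AV against YNG), Nptx2 at -0.00075 (ADQ against AV) and Vgf at 0.029 (all older rats against YNG). With the CA1 score, turned values were Vgf at 0.027 and Nptx2 at -0.024 (ADQ against AV). With the series as a covariate, turned values were Nptx2 at -0.0031 (ADQ against AV). With the CA3 and mossy cell score, turned values were Nptx2 at -0.018 (ADQ against AV) and Vgf at 0.021 (all older rats against YNG). Over the fits that left out 1 rat, these turned: Ntrk3 in AV against YNG (-0.073 to 0.024), Vgf in AV against YNG (-0.10 to 0.046), Ntrk3 in AA against YNG (-0.0088 to 0.092), Vgf in AA against YNG (-0.0074 to 0.16), Bdnf in AA against AV (-0.19 to 0.027), Ntf3 in AA against AV (-0.13 to 0.052), Vgf in ADQ against AV (-0.11 to 0.033), Nptx2 in ADQ against AV (-0.031 to 0.028) and Vgf in all older rats (-0.047 to 0.063). The calls of Ntf3 and Ntrk2 given in the report were lost in 0 of the 44 such fits.

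Limits are few rats per series, values already scaled by the authors, no lengths, and a single tissue block per rat. No paired analysis was possible because the replicate numbers of YNG and older rats name different animals.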
